A study of Mus musculus with 8 samples.

Results

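Expression of 10 genes of the liver Wnt circuit was followed through sham operation and regrowth after hepatectomy, in livers with and without Cre. The genes are Wnt2, Wnt9b, Rspo3, Lgr5, Axin2, Rnf43, Znrf3, Tbx3, Glul and Oat. They were taken by symbol from a fixed list of 10 names, and all 10 were found among the 34465 genes of the table. All 10 were among the 16443 genes tested, those whose mean signal reached 1. The list joins signals sent by blood vessel cells (hence angiocrine) to genes that mark the hepatocytes around the central vein.

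The data are RNA sequencing of whole mouse liver: 8 libraries in 4 groups, with 2 in each. All mice were 3 months old, of the strain 129S4/SvJae/FVB, and carried b-PDGFR fl/fl, the floxed alleles of Pdgfrb. They were negative or positive for Cre under the GFAP promoter, which the labels present as removing the gene from stellate cells, the pericytes of the liver. Livers were taken after a sham operation (Cre-negative sham and Cre-positive sham) or 72 h after partial hepatectomy (Cre-negative hepatectomy and Cre-positive hepatectomy), when the remaining lobes are regrowing. Whether the 2 libraries of a group are separate animals is not stated in the labels, so the p-values measure only the spread between these samples, which may be technical.

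In the liver lobule, endothelial cells of the central vein and nearby sinusoids release Wnt ligands and R-spondins. These act on neighbouring hepatocytes through Frizzled and LRP receptors, stabilise beta-catenin and switch on a pericentral set of genes that includes the glutamine-making enzyme Glul. R-spondins strengthen the signal by binding LGR receptors and clearing the ubiquitin ligases Rnf43 and Znrf3, which otherwise remove Frizzled from the cell surface.

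Stretches before the transcription start are shown for the pair of genes that fell after hepatectomy, Glul and Oat, and for Axin2, a textbook target of beta-catenin that did not pass the test. Each stretch holds 250 bases ending just before the RefSeq start (build GRCm38.p6), written 5' to 3' on the strand of the gene. Capitals mark CCAAT or its reverse complement ATTGG. Glul lies on the plus strand at chr1:153899679-153899928, Oat on the minus strand at chr7:132576399-132576648 and Axin2 on the plus strand at chr11:108920099-108920348.
Glul: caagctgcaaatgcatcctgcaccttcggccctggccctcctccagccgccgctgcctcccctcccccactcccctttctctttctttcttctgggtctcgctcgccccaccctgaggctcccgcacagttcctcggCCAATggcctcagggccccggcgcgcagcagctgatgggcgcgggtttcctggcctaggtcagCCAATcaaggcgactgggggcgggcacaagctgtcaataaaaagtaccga
Oat: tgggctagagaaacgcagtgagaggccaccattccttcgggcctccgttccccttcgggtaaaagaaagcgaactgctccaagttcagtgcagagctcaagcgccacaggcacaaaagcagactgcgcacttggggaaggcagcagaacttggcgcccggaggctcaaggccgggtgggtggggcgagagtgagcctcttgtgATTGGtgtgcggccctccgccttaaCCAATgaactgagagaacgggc
Axin2: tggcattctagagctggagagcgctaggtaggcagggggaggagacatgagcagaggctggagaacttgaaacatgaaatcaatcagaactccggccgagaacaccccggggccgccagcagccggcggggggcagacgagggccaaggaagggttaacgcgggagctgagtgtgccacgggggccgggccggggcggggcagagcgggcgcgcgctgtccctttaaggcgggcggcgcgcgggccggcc

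A window was found for 6 of the 10 genes (7 windows, since Rnf43 has 2 starts): Wnt2, Wnt9b, Axin2, Rnf43, Glul and Oat. The core letters bound by TCF/LEF factors, the DNA-binding partners of beta-catenin, were searched on both strands as ATCAAAG and as the shorter TCAAAG, which the longer motif contains. Neither was present in the 7 windows, while ATCAAAG was present in 3.21% and TCAAAG in 13.8% of the 32851 windows of the same length. No match says only that these letters are not in these bases. CCAAT, a motif common near promoters and searched for after the sequences had been seen, was present in 4 of the 7 windows against 33.8% of all windows. Glul held 2 copies, with first bases at -113 and -50 from the start, and Oat held 2 in opposite orientation at -22 and -47, while 10.1% of all windows held at least 2. Wnt2 and Wnt9b held 1 copy each, at -74 and -243. Axin2 and Rnf43 held none.

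Values are the deposited normalized signal per gene, of unstated normalization, so the tests compare libraries and not genes. Where genes are ranked by signal, called low or added into marker sums, the unit is taken as shared between genes, which is not known. Library sums of the signal ranged from 8617664 to 11583777, and the read depth behind them is unknown. Replicates were closer in sham than after hepatectomy: the median gene differed 1.171-fold between Cre-negative and 1.163-fold between Cre-positive sham replicates, but 1.385-fold between Cre-negative and 1.67-fold between Cre-positive hepatectomy replicates. Cre-positive hepatectomy replicate 2 stood apart in its genes of low GC content. Relative to the sham mean, its median gene lay at -1.60 (log2) among genes with under 40% GC and at 0.66 among genes with 55% GC or more, against -0.06 and -0.11 in Cre-positive hepatectomy replicate 1. The Cre-negative hepatectomy libraries were also shifted at the high end, with medians of -0.04 and 0.61 in replicate 1 and of -0.06 and 0.40 in replicate 2. Hepatocyte genes such as Ttr and Apoa1 were abundant in every library, as the liver label requires. Alb, the albumin gene, was listed at 0 in 7 of the 8 libraries, so a 0 here may stand for a failed estimate. Pdgfrb, the targeted gene, read 49.8 and 63.3 in Cre-negative sham, 59.4 and 46.0 in Cre-positive sham, 123 and 70.5 in Cre-negative hepatectomy and 63.1 and 99.9 in Cre-positive hepatectomy. Its log2 difference between genotypes was -0.10 in sham (limma, Benjamini-Hochberg adjusted p = 1) and -0.23 after hepatectomy (adjusted p = 0.769), so whole-liver signal did not separate the genotypes and the group names rest on the labels.

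The pericentral enzymes fell after hepatectomy, while none of the ligands, the receptor, the feedback regulators or Tbx3 passed the test. Averaged over genotypes, 2 of the 10 genes fell (Glul and Oat) and 0 rose. Of all genes tested, 4.49% were called in this comparison and 0.845% were called as fallen, by limma on log2(signal + 1) with a Benjamini-Hochberg adjusted p under 0.05. Only Glul and Oat had every hepatectomy library below every sham library, and none of the 10 lay wholly above. Such a separation of 4 against 4 libraries, in either direction, held for 17.4% of all genes, a share close to 2 of the 10. For a group of 2 libraries against another group of 2, the share of all genes was not counted. Such separations are given below as a description only. The median log2 fold change of the 10 genes was -0.15, against 0.12 for all genes tested. In bulk RNA, fewer cells of a type and less RNA per cell cannot be told apart.

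**Figure D1:**
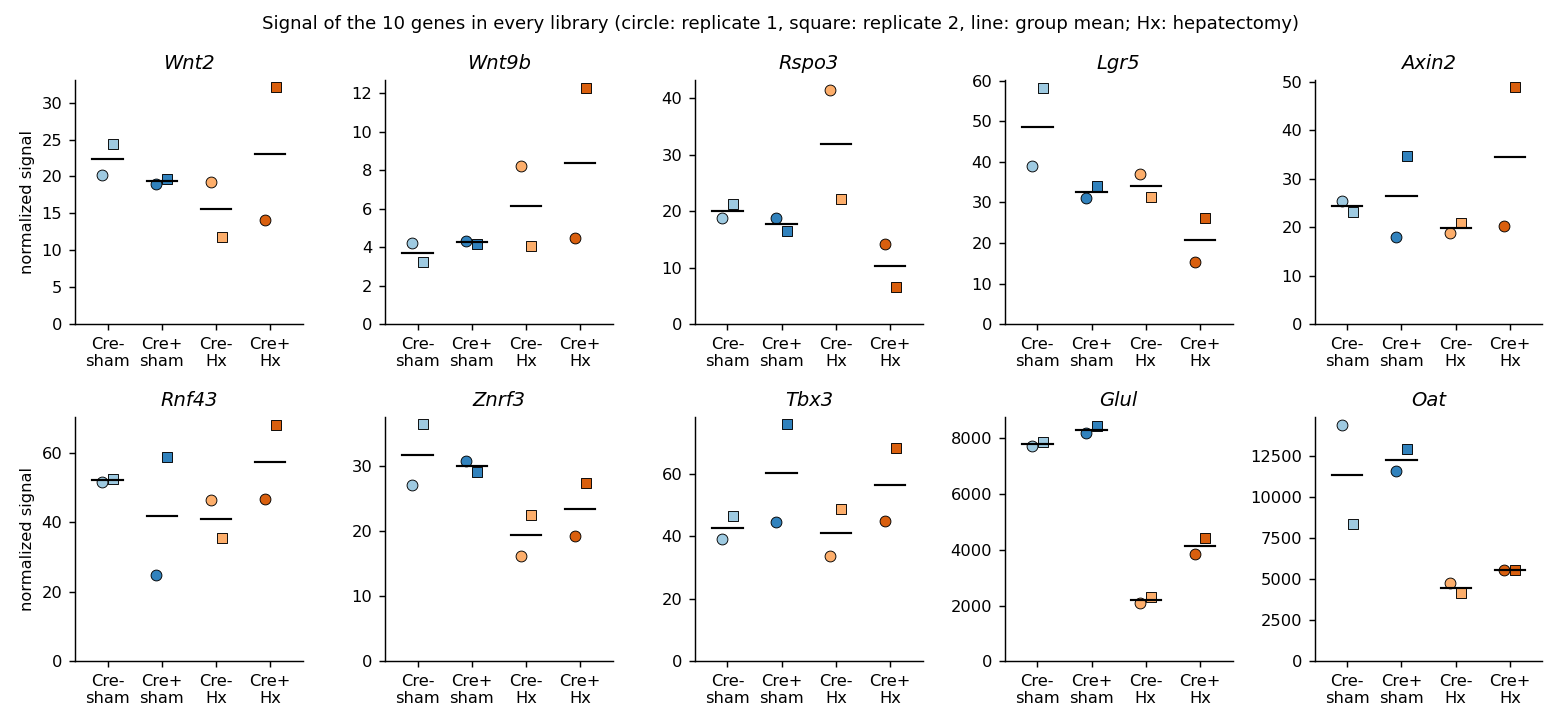
Normalized signal (linear axes starting at 0) of the 10 genes in each of the 8 libraries, by group. Circles are replicate 1, squares replicate 2 and lines group means of 2 libraries. Glul and Oat lie lower in all 4 hepatectomy libraries, whereas Wnt2, Wnt9b, Axin2 and Rnf43 have their highest value in Cre-positive hepatectomy replicate 2.

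Glul encodes glutamine synthetase, which captures ammonia in the innermost ring of hepatocytes around the central vein. Its signal was 7712 and 7864 in Cre-negative sham, 8180 and 8437 in Cre-positive sham, 2098 and 2306 in Cre-negative hepatectomy, and 3865 and 4418 in Cre-positive hepatectomy. The hepatectomy libraries did not overlap with sham in either genotype. The Cre-positive pair lay above the Cre-negative pair under each operation, in sham as well as after hepatectomy. In Cre-negative livers the mean went from 7788 ± 107 to 2202 ± 147 (SD, n = 2), or 0.283 of sham, and in Cre-positive livers from 8308.5 ± 182 to 4141 ± 391 (SD, n = 2), or 0.498 of sham. The averaged log2 fold change was -1.42 (SE 0.15, 95% interval -1.77 to -1.07, limma adjusted p = 0.00452). Glul passed under all 14 alternative settings and left-out libraries, with adjusted p between 0.00269 and 0.0453.

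Oat encodes ornithine aminotransferase, another nitrogen-handling enzyme of pericentral hepatocytes. Its signal was 14389 and 8367 in Cre-negative sham, 11620 and 12961 in Cre-positive sham, 4760 and 4201 in Cre-negative hepatectomy, and 5567 in each Cre-positive hepatectomy library. All 4 hepatectomy values lay below the lowest sham value, and the 2 Cre-positive hepatectomy libraries held an identical value, the only repeated one among the 10 genes. Its averaged log2 fold change was -1.22 (SE 0.21, 95% interval -1.71 to -0.72, limma adjusted p = 0.0263). The direction held in all 14 alternatives, but the call was lost in 7 of them, with adjusted p up to 0.136. These were the fit with no filter, quantile normalization, and the fits that left out replicate 1 of the Cre-negative sham group, either Cre-positive sham library or either Cre-negative hepatectomy library. Among the settings that kept the call, the most abundant isoform could not lose it, since Oat has 1 annotated isoform and its values were unchanged. Without Cre-positive hepatectomy replicate 2 both enzymes still passed, Glul at -1.46 (limma adjusted p = 0.0073) and Oat at -1.22 (adjusted p = 0.0456).

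**Figure D2:**
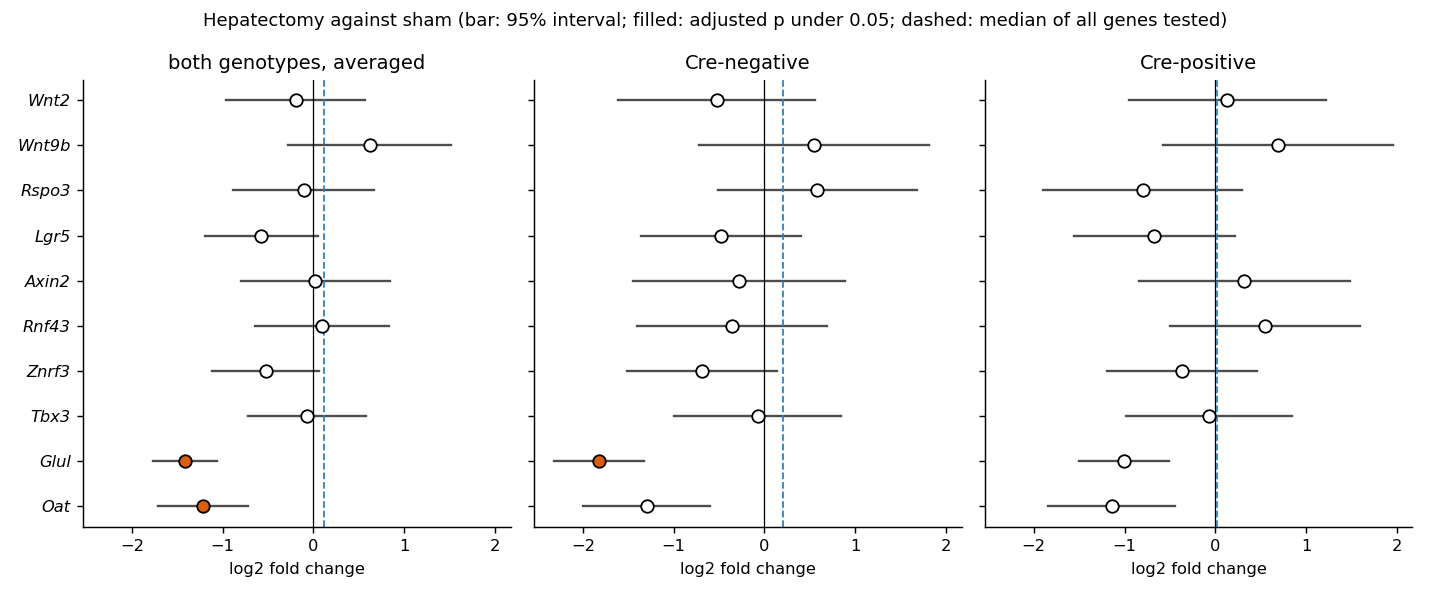
Log2 fold change of hepatectomy against sham for the 10 genes, averaged over genotypes and in each genotype. Bars are 95% intervals from limma, filled points have an adjusted p under 0.05, and the dashed line is the median of all genes tested. Glul and Oat are filled when averaged, Glul alone in Cre-negative livers and none in Cre-positive livers.

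Within a genotype, with 2 libraries against 2, fewer genes passed. In Cre-negative livers, 1 of the 10 genes fell, Glul at -1.82 (SE 0.21, limma adjusted p = 0.0235), where 1.11% of all genes were called and 0.103% fell. That call was lost when only the compared groups were fitted (adjusted p = 0.0608) and in 6 of the 8 fits with a library left out, where adjusted p reached 0.21. Those were the fits without any 1 of the 4 sham libraries or either Cre-negative hepatectomy library. Oat was at -1.30 there (adjusted p = 0.0904). In Cre-positive livers 0 of the 10 passed, against 0.943% of all genes: Oat was at -1.14 (adjusted p = 0.164) and Glul at -1.01 (adjusted p = 0.0958). Both had an unadjusted p under 0.05 in each genotype, 2 of the 10 genes against 21.3% of all genes in Cre-negative and 13.5% in Cre-positive livers. Without Cre-positive hepatectomy replicate 1, Glul was at -0.91 in Cre-positive livers (adjusted p = 0.0256), in a fit that called 3459 genes against 155 with all libraries.

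Glul lay further below sham in Cre-negative than in Cre-positive livers, but the difference of these responses, 0.82 (SE 0.30, 95% interval 0.11 to 1.52), had an unadjusted limma p of 0.0282 and an adjusted p of 0.591. After hepatectomy the genotype difference of Glul was 0.91 (adjusted p = 0.131). Without Cre-positive hepatectomy replicate 1 it was 1.01 (adjusted p = 0.0275), in a fit with 1 Cre-positive hepatectomy library that called 2142 genes against 3 with all libraries. The isoforms of Glul differed in their values. Glul-001, the most abundant of 5 annotated isoforms, read 4845, 5282, 5533 and 5772 in the sham libraries in group order, 2057 and 2091 in Cre-negative hepatectomy, and 2362 and 2564 in Cre-positive hepatectomy. This isoform lay well below sham in all 4 hepatectomy libraries. The other 4 isoforms together read between 2582 and 2867 in sham, 41.6 and 215 in Cre-negative hepatectomy, and 1503 and 1853 in Cre-positive hepatectomy. Their share of Glul was 31.6% to 37.2% in sham, 1.98% and 9.32% in Cre-negative hepatectomy, and 38.9% and 42% in Cre-positive hepatectomy.

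Fitted on Glul-001 alone, a setting chosen after the data had been seen, the responses were -1.29 in Cre-negative (limma adjusted p = 0.042) and -1.20 in Cre-positive livers (adjusted p = 0.0533). Their difference was then 0.09 (adjusted p = 0.94), and the averaged fall was -1.24 (adjusted p = 0.00663). How reads were divided between overlapping isoforms is the estimate of the deposited processing, so the isoform values carry that uncertainty. Oat has a single annotated isoform, so a split of this kind could not be seen for it.

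**Figure D3:**
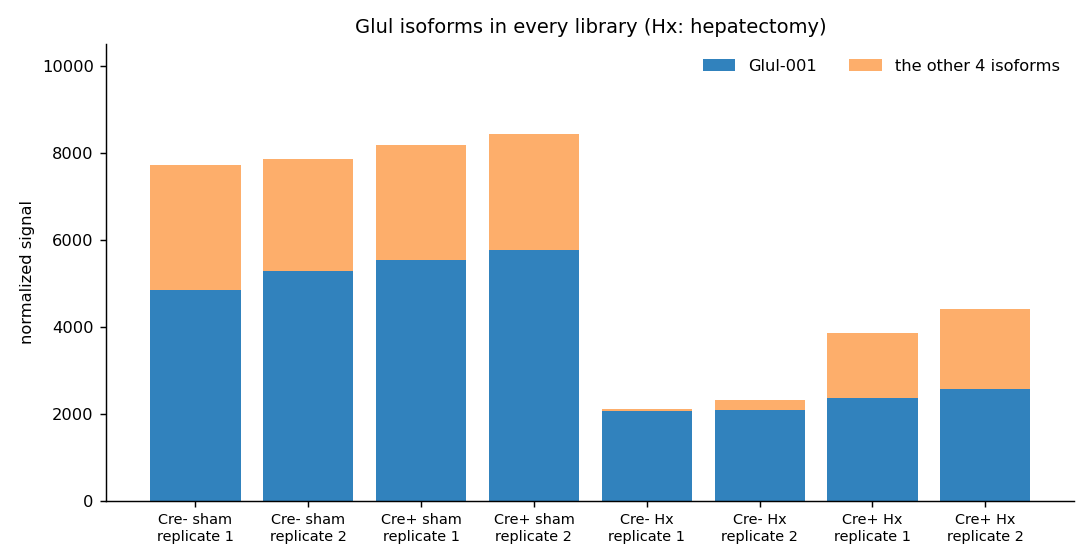
Normalized signal of Glul in each library, stacked as Glul-001 and the other 4 isoforms together. Glul-001 lies between 2057 and 2564 in all 4 hepatectomy libraries, while the other isoforms are at 41.6 and 215 in Cre-negative and at 1503 and 1853 in Cre-positive hepatectomy.

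Wnt2 and Wnt9b are the ligands released by central vein and sinusoidal endothelial cells. Wnt2 read 20.2 and 24.4 in Cre-negative sham, 19.0 and 19.7 in Cre-positive sham, 19.2 and 11.9 in Cre-negative hepatectomy, and 14.1 and 32.1 in Cre-positive hepatectomy. The Cre-negative hepatectomy pair lay below its sham pair, while the Cre-positive hepatectomy pair lay on both sides of its own. Its averaged log2 fold change was -0.20 (SE 0.33, limma adjusted p = 0.721). Wnt2 has 2 isoforms with different patterns: Wnt2-001 went from between 10.5 and 16.0 in sham to between 3.63 and 10.5 after hepatectomy, while Wnt2-002 went from between 7.92 and 8.79 to between 5.90 and 21.6.

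Wnt9b was low, with a signal of 4.20 and 3.23 in Cre-negative sham, 4.34 and 4.17 in Cre-positive sham, 8.22 and 4.08 in Cre-negative hepatectomy, and 4.45 and 12.3 in Cre-positive hepatectomy. In each hepatectomy pair 1 library was clearly above sham and the other close to it. The averaged log2 fold change was 0.62 (SE 0.38, 95% interval -0.28 to 1.51, limma adjusted p = 0.345), and 0.30 (adjusted p = 0.573) without Cre-positive hepatectomy replicate 2.

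Rspo3 is the R-spondin of the central vein, which both endothelial and stellate cells can make. It read 18.8 and 21.2 in Cre-negative sham, 18.8 and 16.5 in Cre-positive sham, 41.5 and 22.2 in Cre-negative hepatectomy, and 14.1 and 6.55 in Cre-positive hepatectomy. Both Cre-negative hepatectomy libraries lay above their sham pair and both Cre-positive ones below theirs, an opposite placement, in either order, that 6.85% of all genes showed. The log2 fold changes were 0.58 (limma adjusted p = 0.492) and -0.80 (adjusted p = 0.478), and their difference was -1.38 (SE 0.66, 95% interval -2.93 to 0.16, adjusted p = 0.649). The genotype difference after hepatectomy was -1.55 (SE 0.47, adjusted p = 0.179). With replicate 2 of Cre-positive hepatectomy left out it was -1.05 (adjusted p = 0.172), and with replicate 1 left out, in the fit that called 2142 genes, it was -2.06 (adjusted p = 0.0379). Rspo3 has the lowest GC content of the 10 genes, 44.1%. Relative to the sham mean (log2), it lay at -1.39 in Cre-positive hepatectomy replicate 2, where the median gene of its GC class lay at -0.95. In Cre-positive hepatectomy replicate 1 it lay at -0.385 (class median 0.0). In Cre-negative hepatectomy it lay at 1.11 in replicate 1 and 0.23 in replicate 2 (class medians 0.007 and -0.028). The part of base composition in these values was not tested.

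Markers of the cells that send these signals were read beside the ligands. The summed signal of 24 endothelial markers ranged from 6290 to 8010 in sham, was 6086 and 3282 in Cre-negative hepatectomy and was 5146 and 7275 in Cre-positive hepatectomy. Of the 24, 3 fell in the averaged comparison and 0 rose: Oit3 at -1.31 (limma adjusted p = 0.022), Fcgr2b at -1.03 (adjusted p = 0.0407) and Kdr, the VEGF receptor, at -1.13 (adjusted p = 0.0413). The median of the list was -0.51. Without Cre-positive hepatectomy replicate 2 or Cre-negative hepatectomy replicate 1, 1 of the 24 passed, and with any 1 sham library or Cre-negative hepatectomy replicate 2 left out, 0 did. The 14 stellate cell markers summed to between 3907 and 5199 in sham and to between 2364 and 2840 after hepatectomy. These sums are set largely by Dcn and Ecm1, with mean signals of 1251.7 and 1116.2. Of the 14, 1 fell, Colec10 at -2.31 (adjusted p = 0.0343), with a list median of -0.67. The averaged change was above 0 in 4 of the 14 and below 0 in 10. With any 1 sham or Cre-negative hepatectomy library left out 0 of the 14 passed, while without Cre-positive hepatectomy replicate 1, where 5369 of all genes were called against 738 with all libraries, 8 fell and 2 rose. Without its replicate 2, 2 fell. The 10 Kupffer cell markers summed to between 1979 and 3122 in sham, to 2904 and 2220 in Cre-negative hepatectomy and to 5085 and 5357 in Cre-positive hepatectomy. None of them passed. No marker of these 3 cell types was at 0 in any library, and their part in the values of the ligands was not tested.

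Lgr5 encodes the R-spondin receptor found on pericentral hepatocytes. It read 38.9 and 58.1 in Cre-negative sham, 31.1 and 34.1 in Cre-positive sham, 37.0 and 31.2 in Cre-negative hepatectomy, and 15.3 and 26.3 in Cre-positive hepatectomy. The hepatectomy pair lay below the sham pair within each genotype, and the Cre-positive pair lay below the Cre-negative pair under each operation. The share of all genes placed in this way was not counted, so the placement is a description only. None of these differences passed: the averaged hepatectomy change was -0.57 (SE 0.27, 95% interval -1.20 to 0.05, limma adjusted p = 0.239), and the genotype difference was -0.53 in sham (adjusted p = 1) and -0.73 after hepatectomy (adjusted p = 0.338).

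Axin2, a scaffold of the complex that destroys beta-catenin and itself induced by the pathway, read 25.4 and 23.2 in Cre-negative sham, 18.1 and 34.8 in Cre-positive sham, 18.8 and 20.9 in Cre-negative hepatectomy, and 20.3 and 48.9 in Cre-positive hepatectomy. The Cre-negative hepatectomy pair lay below its sham pair, while the Cre-positive pairs were wide and overlapped the Cre-negative ones. Its averaged change was 0.02 (SE 0.35, limma adjusted p = 0.977), and the sign turned under other scalings.

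Rnf43 and Znrf3 are the paired ubiquitin ligases that limit Frizzled at the cell surface. Rnf43 read 51.8 and 52.4 in Cre-negative sham, 24.8 and 58.8 in Cre-positive sham, 46.4 and 35.4 in Cre-negative hepatectomy, and 46.7 and 68.2 in Cre-positive hepatectomy. Znrf3 read 27.1 and 36.6 in Cre-negative sham, 30.9 and 29.1 in Cre-positive sham, 16.3 and 22.5 in Cre-negative hepatectomy, and 19.4 and 27.4 in Cre-positive hepatectomy. Znrf3 was lower after hepatectomy within each genotype, without overlap, whereas the Rnf43 pairs separated in Cre-negative livers alone. How many of all genes separate in these ways was not counted, and a difference between the genes was not tested. Their averaged changes were 0.10 for Rnf43 (SE 0.32, limma adjusted p = 0.865) and -0.53 for Znrf3 (SE 0.25, 95% interval -1.11 to 0.06, adjusted p = 0.245). The sign for Rnf43 turned under other scalings. Its 9 isoforms varied widely between replicates: the share of Rnf43-001 was 14.2% and 69% in the Cre-negative hepatectomy pair.

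Tbx3, a transcription factor of pericentral hepatocytes, read 39.2 and 46.4 in Cre-negative sham, 44.5 and 76.1 in Cre-positive sham, 33.7 and 48.7 in Cre-negative hepatectomy, and 44.998 and 68.1 in Cre-positive hepatectomy. The groups overlapped throughout, and the averaged change was -0.07 (SE 0.28, 95% interval -0.72 to 0.58, limma adjusted p = 0.887).

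Between genotypes, 0 of the 10 genes passed in sham, where 0.00608% of all genes (1 gene) were called, and 0 of the 10 passed after hepatectomy, where 0.0182% (3 genes) were. At an unadjusted p under 0.05 these were 0 of the 10 in sham, against 0.888% of all genes, and 2 of the 10 (Glul and Rspo3) after hepatectomy, against 18.3%. The fit gave all groups 1 shared spread per gene, although replicates were closer in sham than after hepatectomy. Its p-values therefore tend to be too large in sham and too small after hepatectomy, and the 2 shares are not directly comparable. A response to hepatectomy that differed by genotype was called for 0 of the 10 genes and for 0.0122% of all genes (2 genes), and 1 of the 10, Glul, had an unadjusted p under 0.05, against 8.09% of all genes. The lowest adjusted p of the 10 for that difference was 0.591.

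**Figure D4:**
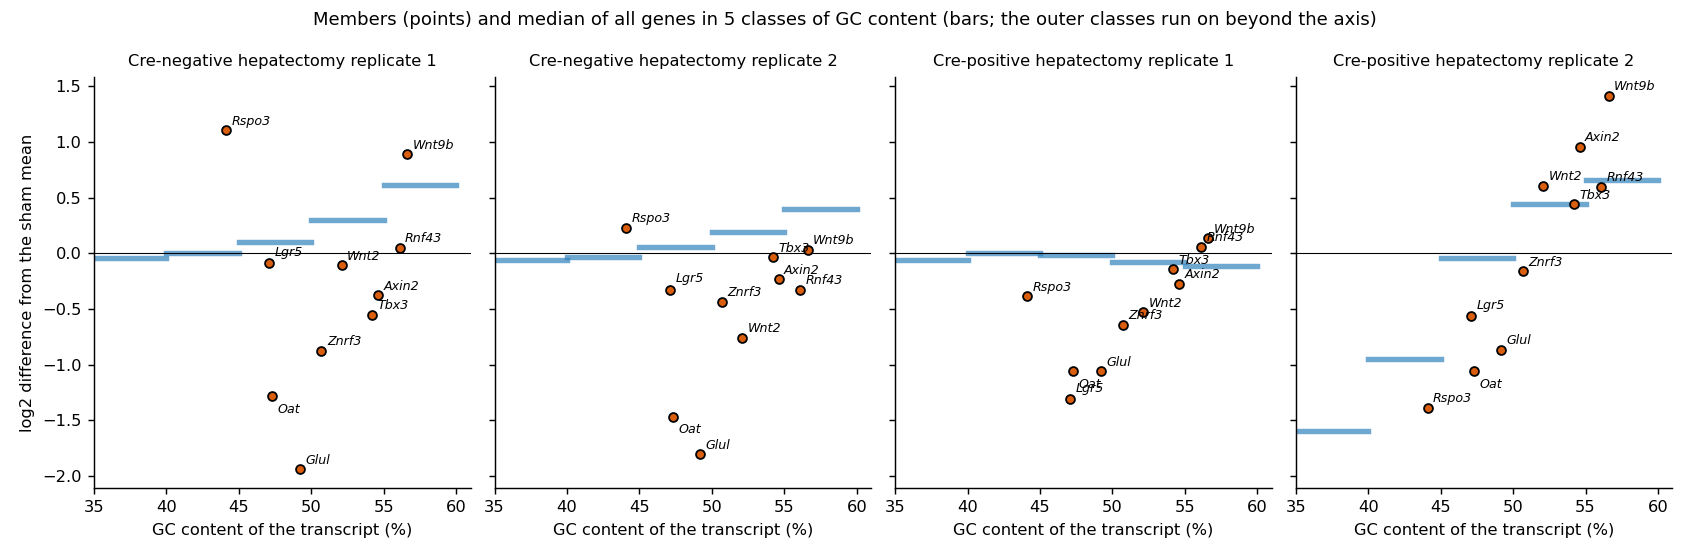
Log2 difference of each hepatectomy library from the sham mean against the GC content of the transcript. Points are the 10 genes and bars the median of all genes with a GC value in 5 classes of GC content (the outer classes run on beyond the axis). In Cre-positive hepatectomy replicate 2 the class medians run from -1.60 to 0.66, and of the 6 genes with over 50% GC, Wnt9b, Axin2, Wnt2, Rnf43 and Tbx3 lie above 0 there and Znrf3 at -0.16.

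The GC content of the 10 transcripts ran from 44.1% in Rspo3 to 56.6% in Wnt9b. In Cre-positive hepatectomy replicate 2, Wnt9b lay 1.42 above the sham mean on the log2 scale, Axin2 (54.6% GC) 0.96 above, Wnt2 (52.1%) 0.61 above and Rnf43 (56.1%) 0.60 above. Tbx3 (54.2%) lay 0.44 above, while Znrf3 (50.7%) lay at -0.16. The median of all genes in that library was 0.45 in the class from 50% to 55% and 0.66 in the class of 55% or more. Glul (49.2%) and Oat (47.3%) lay at -0.86 and -1.06 there, in a class with a median of -0.04. Lgr5 (47.1%), in the same class, lay at -0.57. In Cre-positive hepatectomy replicate 1, where the class medians lay between -0.11 and 0, Wnt9b lay at 0.14, Axin2 at -0.27, Wnt2 at -0.53, Rnf43 at 0.06, and Glul and Oat both at -1.06. Lgr5 was the lowest of the 10 genes in that library, at -1.31, while Znrf3 lay at -0.64 and Tbx3 at -0.14. The part of base composition in the values of the 10 genes was not tested. Without Cre-positive hepatectomy replicate 2 the averaged change was -0.48 for Wnt2 (adjusted p = 0.276), -0.29 for Axin2 (adjusted p = 0.554) and -0.04 for Rnf43 (adjusted p = 0.954), by limma.

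The rest of the Wnt pathway lists gave no call in the averaged comparison. Of 20 other Wnt and R-spondin ligands 7 had enough signal to be tested and 0 passed: the most abundant, Wnt5b and Rspo1, were at -0.08 (limma adjusted p = 0.887) and 0.39 (adjusted p = 0.653). Of 14 receptors 10 were tested and 0 passed, with Lrp5, the Wnt co-receptor, at 0.05 (adjusted p = 0.9) and Lgr4, the broadly expressed R-spondin receptor, at -0.75 (adjusted p = 0.239). Of 21 genes of Wnt secretion and the beta-catenin machinery 20 were tested and 0 passed, including Ctnnb1 (beta-catenin itself) at -0.44 (adjusted p = 0.269) and its kinase Csnk1a1 at -0.62 (adjusted p = 0.208). Of 16 antagonists 10 were tested and 0 passed, with Notum, an enzyme that inactivates Wnt, at -0.38 (adjusted p = 0.431) and Kremen1 at -0.16 (adjusted p = 0.737). The list medians were 0.09, -0.30, -0.01 and -0.14. The genes named are the most abundant of each list and not those that changed most. In the same order, the log2 fold changes ran from -0.11 to 0.75, from -1.01 to 0.87, from -0.62 to 0.92 and from -2.64 to 0.91. Without Cre-positive hepatectomy replicate 1, 2 of the ligands rose, 3 of the receptors fell, 5 of the machinery genes rose and 4 fell, and 1 antagonist fell. That is the fit with 5369 genes called.

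**Figure D5:**
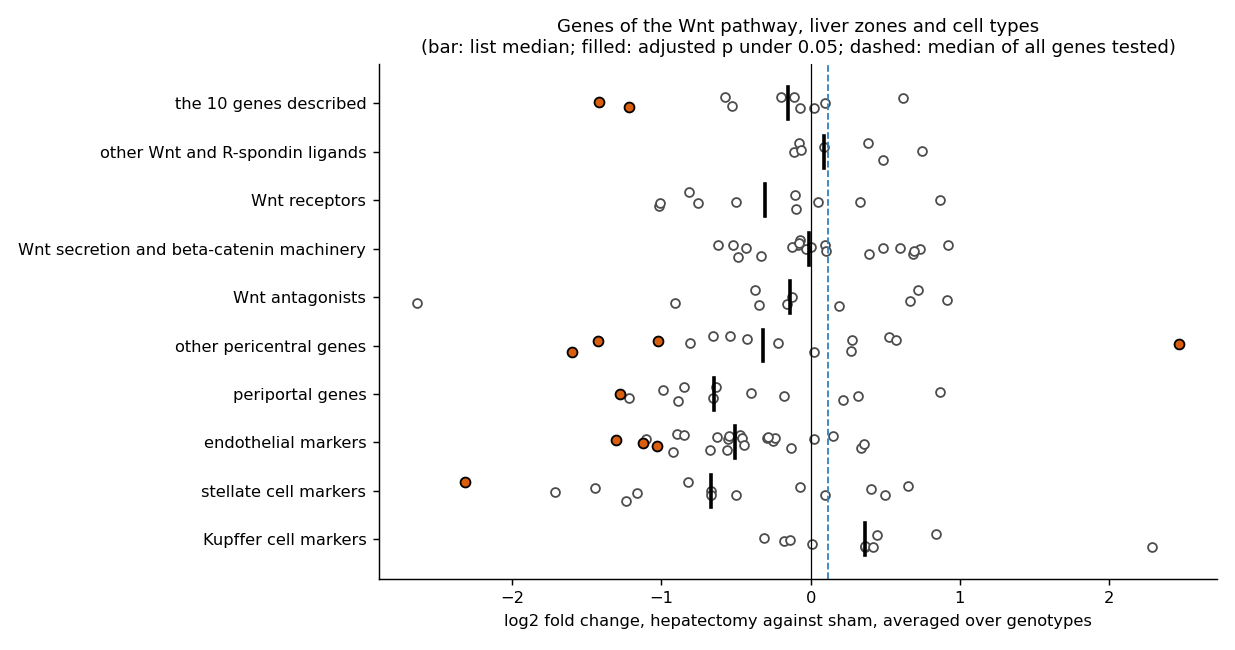
Log2 fold change of hepatectomy against sham, averaged over genotypes, for the 10 genes and for lists of related genes. Each point is a gene, filled where the adjusted p is under 0.05, bars are list medians and the dashed line is the median of all genes tested (0.12). The pericentral list has 3 filled points on the left and 1 on the right, Slc1a4, and the other Wnt lists have none.

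The other pericentral genes did not move as a block. Of 14, 3 fell and 1 rose, with a median of -0.32. Cyp2e1, the ethanol-oxidising cytochrome P450, read 158296, 148220, 142619 and 208548 in the sham libraries in group order, 47125 and 52717 in Cre-negative hepatectomy and 60405 and 55450 in Cre-positive hepatectomy, a log2 change of -1.60 (SE 0.22, limma adjusted p = 0.0108). Cyp1a2, another pericentral P450, was at -1.02 (SE 0.17, adjusted p = 0.0229) and Slc1a2, a glutamate transporter, at -1.42 (SE 0.24, adjusted p = 0.0229). Slc1a4, a transporter of neutral amino acids, went the other way. It read between 7.69 and 10.04 in sham, 45.4 and 50.2 in Cre-negative hepatectomy and 39.8 and 79.8 in Cre-positive hepatectomy, a change of 2.47 (SE 0.28, adjusted p = 0.0064). It passed in all 13 alternatives of the averaged comparison. Slc1a4 also rose in each genotype, at 2.43 in Cre-negative (adjusted p = 0.0467) and 2.52 in Cre-positive livers (adjusted p = 0.045), but each of these calls was lost in 10 of 14 alternatives, among them any 1 sham library left out, with adjusted p up to 0.339. The falls of Cyp2e1, Cyp1a2 and Slc1a2 kept their sign in all 13 but were called in 9, 7 and 6 of them. With any 1 sham library left out at most 1 of the 14 fell, without either Cre-negative hepatectomy library 1 or 2 did, and without Cre-positive hepatectomy replicate 1, with 5369 genes called, 5 fell and 2 rose.

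Genes of the opposite, periportal zone gave 1 fall among 12, Cyp2f2 at -1.28 (limma adjusted p = 0.0354), with a list median of -0.65, below that of the pericentral list. The call of Cyp2f2 was lost in 7 of 13 alternatives. All 8 cell division genes rose, with a median of 4.18, and Mcm5, a DNA replication helicase subunit, rose by 3.51 (SE 0.20, adjusted p = 0.00139). At least 6 of the 8 passed with any 1 library left out.

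The closest patterns over the 8 libraries, by Pearson correlation of log2(signal + 1) among all tested genes, are given as a description, since the libraries share their depth, base composition and operation groups. Glul was most like Pklr (r = 0.992), the liver pyruvate kinase, and Cyp4a12a (r = 0.990), whose reads may be shared with a near-identical paralog. Pklr read between 1177 and 1469 in sham, 226 and 325 in Cre-negative hepatectomy and 545 and 685 in Cre-positive hepatectomy, the same order of groups as Glul. Oat was most like 1300010F03Rik (r = 0.956) and Cyp2e1 (r = 0.946). Wnt2 was most like Fasn (r = 0.979), the fatty acid synthase, and Vps8 (r = 0.976), and Lgr5 was most like Tecr (r = 0.929) and Prkag2 (r = 0.928). Among the 10 genes, the pairs with the highest correlation were Glul and Oat (r = 0.913), Glul and Znrf3 (r = 0.845) and Axin2 and Tbx3 (r = 0.805).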

How the data were processed

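Whole-liver RNA libraries were made with an Illumina TruSeq kit, per the labels' protocols. The tables deposited by the authors hold normalized signal for genes and for their isoforms. The submitters' processing notes name TopHat and Cufflinks and, as builds, mm9 and NCBIM37. Tool versions and the normalization applied are not given in the sources used here. A test planned for FPKM was kept for the signal values. Read counts and depth are unknown, so no counting interval is given. For the 10 genes, isoform signals added up to the gene's signal within 5e-07.

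Samples were grouped from their titles. A linear model with 4 group means was fitted to log2(signal + 1) with limma 3.58.1 in R 4.3.3, with moderation along an intensity trend, on the 16443 genes whose mean signal reached 1. Each gene had 1 estimate of the spread, shared by the 4 groups. Fold changes on this scale understate changes of low genes. P-values are two-sided and adjusted by Benjamini-Hochberg over all genes tested, with a threshold of 0.05. Errors are standard errors, or SD over 2 libraries. Scripts were tested on simulated data. The members and lists were chosen with earlier results of these data known. Named genes are the 10 members, up to 4 called genes of each other list by adjusted p or otherwise up to 2 of the highest mean, the 2 closest patterns of Wnt2, Lgr5, Glul and Oat, and Pdgfrb; Ttr, Apoa1 and Alb were added as checks of the tissue. No member fell under the filter, so the permutation test planned for such members was not run, and protein comparisons were not made. GC content came from GENCODE M21 transcripts, for 96.4% of the genes tested, and promoter sequences from RefSeq (GRCm38.p6), a build other than that of the files, used for sequence only. The hepatocyte marker Tf is not analysed here. Alternatives were another pseudocount (0.1), no filter or a minimum mean of 10, median-of-ratios scaling, quantile normalization, the compared groups alone, each library left out and, added later, the most abundant isoform.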

Additional observations from a re-analysis of the deposited data

Results flagged for a closer look

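Rspo3 lay on opposite sides of sham in the 2 genotypes: both Cre-negative hepatectomy libraries lay above both Cre-negative sham libraries, and both Cre-positive hepatectomy libraries lay below both Cre-positive sham libraries. Such an opposite placement, in either order, was seen in 6.85% of all genes tested, and neither change passed (0.58, adjusted p = 0.492, and -0.80, adjusted p = 0.478). The response in Cre-positive minus that in Cre-negative livers was -1.38 on the log2 scale (unadjusted p = 0.0726, adjusted p = 0.649 by limma), which did not pass. Over the alternatives this difference ranged from -1.88 to -0.88, with adjusted p between 0.13 and 0.983.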

How the results depend on the processing

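Glul passed in the averaged comparison in all 14 alternatives (-1.57 to -1.24) and Slc1a4 in all 13. Oat was called in 7 of 14, Oit3 in 8 of 13, Kdr and Fcgr2b in 5 of 13, and Colec10 in 6 of 13. For Oat, which has 1 annotated isoform, the most abundant isoform repeats the same values and is no separate check. Where a left-out library leaves a group with 1 sample, that sample is assumed to vary like the other groups. With each library left out in turn, the number of genes called ranged from 134 to 5369 for hepatectomy averaged (738 with all libraries), from 0 to 1657 in Cre-negative livers (183), from 1 to 3459 in Cre-positive livers (155), from 0 to 19 for genotype in sham (1), from 0 to 2142 for genotype after hepatectomy (3) and from 0 to 732 for the difference of responses (2). The high ends came without Cre-positive hepatectomy replicate 1 (for genotype in sham, equally without its replicate 2), where Lgr4, Ctnnb1 and Csnk1a1 also passed; the cause was not tested. With no filter the counts were 405, 103, 7, 0, 22 and 1 in the same order. In Cre-negative livers the count was 62 with median-of-ratios scaling, 79 with quantile normalization and 63 with only the compared groups; in Cre-positive livers it was 103 with quantile normalization and 0 with only the compared groups, and for genotype after hepatectomy 0 with only the compared groups. For the difference of responses it was 1 with a pseudocount of 0.1 and 0 with a minimum mean of 10. At an unadjusted p under 0.05, 2219 genes in Cre-positive livers, 146 for genotype in sham, 3009 for genotype after hepatectomy and 1330 for the difference of responses passed by limma with the settings of the report.

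The median log2 change of all genes in the averaged comparison was 0.12 as deposited, -0.03 with median-of-ratios scaling and -0.03 with quantile normalization. Axin2 was at -0.13 with median-of-ratios scaling, -0.25 with quantile normalization and -0.061 with the most abundant isoform, an alternative chosen after seeing the data; Rnf43 was at -0.059 and -0.098 with those scalings. With the most abundant isoform Wnt2 was at 0.38 and Tbx3 at 0.048. Lrp5 was at -0.11 with median-of-ratios scaling, Rspo1 at -0.012 with quantile normalization, and the difference of responses of Oat at -0.065 with quantile normalization. With each library left out, Axin2 ranged from -0.29 to 0.33, Rnf43 from -0.21 to 0.40, Tbx3 from -0.26 to 0.12, Rspo3 from -0.36 to 0.14, Wnt2 from -0.48 to 0.087, Wnt5b from -0.27 to 0.12, Rspo1 from -0.025 to 0.79, Lrp5 from -0.11 to 0.21, Kremen1 from -0.35 to 0.039 and the difference of responses of Oat from -0.24 to 0.55. No paired analysis was possible because the labels give no shared replicate numbers.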
